A study of Mus musculus with 8 samples.

Results

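The genes described here encode the mitochondrial respiratory chain and ATP synthase, measured in adipose tissue of obese mice. They were chosen by symbol: every gene on the array whose name begins with Nduf, Uqcr, Cox4, Cox5, Cox6, Cox7, Cox8 or Atp5, together with the succinate dehydrogenase genes, Cycs and Cyc1, leaving out Cox8b and Cox7a1. The array carried a probe for 85 such genes, and 78 of them were detected, meaning a detection p-value under 0.05 on at least 2 of the 8 arrays. These 78 were among 9803 genes detected in all, and each is represented by its brightest detected probe. The choice used detection and no difference between groups, although a gene high in 1 group and dim in the others could enter through that group. The symbols also took in 5 assembly factors of complex I (Ndufaf1, Ndufaf3, Ndufaf4, Ndufaf5 and Ndufaf7) and Ndufs5-ps, which RefSeq lists as a transcribed pseudogene, so that 72 of the 78 are structural subunits or cytochrome c.

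The study compared wild-type mice (WT, n = 2, age 24 weeks), IL6 knock-out mice (IL6_KO, n = 3, 25 weeks) and mice with an sgp130Fc transgene (n = 3, 26 weeks). All were of C57Bl6 background, obese from high-fat feeding and fasted for 5 h, and each array held total RNA of 1 whole adipose sample. IL-6 is a cytokine made by fat, muscle and immune cells, and sgp130Fc is a soluble form of the gp130 receptor that blocks trans-signalling, the action of IL-6 through its soluble receptor. The comparisons ask what obese fat looks like without IL-6 or without trans-signalling alone. Each group had its own age, and age and genotype cannot be told apart. The promoter of the transgene, the fat depot and the sex of the mice are not given in the sources used here. Nothing in the labels says that replicates were separate animals, and p-values then measure only the spread between these samples.

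The chain passes electrons from NADH through complex I, or from succinate through complex II, to coenzyme Q, then through complex III and cytochrome c to oxygen at complex IV. Complexes I, III and IV pump protons across the inner mitochondrial membrane, and ATP synthase uses their return flow to make ATP. Most subunits are encoded in the nucleus and are transcribed with the help of factors such as NRF1, GABPA, YY1 and ERRA, while a few core subunits are encoded in mitochondrial DNA. White adipocytes hold fewer mitochondria than brown adipocytes and use them in fat synthesis, fatty acid breakdown and adipokine production.

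Promoters of 5 members are shown. Ndufv3 and Uqcr11 were among the 4 members with the lowest difference in IL6_KO minus WT. Ndufb4 (-0.41 in that comparison, where several members were lower), Cox6a1 and Ndufs4 carry a match to one of the classical motifs of this gene family. The 5 were picked and do not stand for all members. The sequences are those of RefSeq, build GRCm38.p6, and run 5′ to 3′ on the strand of the gene from 250 bases before its start to 50 after. Capitals mark motif matches on either strand.
Ndufv3, chr17:31519865-31520164, plus strand: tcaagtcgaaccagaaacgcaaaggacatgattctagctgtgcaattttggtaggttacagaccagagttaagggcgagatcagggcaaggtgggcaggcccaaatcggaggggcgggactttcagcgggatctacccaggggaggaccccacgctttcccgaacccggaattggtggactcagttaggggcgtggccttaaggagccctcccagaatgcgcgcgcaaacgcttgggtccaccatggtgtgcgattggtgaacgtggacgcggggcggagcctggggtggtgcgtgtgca
Uqcr11, chr10:80406772-80407071, minus strand: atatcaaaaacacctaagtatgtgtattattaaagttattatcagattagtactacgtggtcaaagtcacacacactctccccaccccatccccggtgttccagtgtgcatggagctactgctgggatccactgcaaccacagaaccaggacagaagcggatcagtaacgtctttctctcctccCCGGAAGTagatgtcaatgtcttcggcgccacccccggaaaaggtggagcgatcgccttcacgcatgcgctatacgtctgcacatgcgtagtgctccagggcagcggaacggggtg
Ndufb4, chr16:37654319-37654618, minus strand: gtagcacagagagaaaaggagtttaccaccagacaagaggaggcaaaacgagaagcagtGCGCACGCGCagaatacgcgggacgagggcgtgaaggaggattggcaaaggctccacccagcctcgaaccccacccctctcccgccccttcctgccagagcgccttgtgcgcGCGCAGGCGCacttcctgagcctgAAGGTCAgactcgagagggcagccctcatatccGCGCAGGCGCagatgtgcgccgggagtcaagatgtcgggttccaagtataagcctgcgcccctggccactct
Cox6a1, chr5:115348909-115349208, minus strand: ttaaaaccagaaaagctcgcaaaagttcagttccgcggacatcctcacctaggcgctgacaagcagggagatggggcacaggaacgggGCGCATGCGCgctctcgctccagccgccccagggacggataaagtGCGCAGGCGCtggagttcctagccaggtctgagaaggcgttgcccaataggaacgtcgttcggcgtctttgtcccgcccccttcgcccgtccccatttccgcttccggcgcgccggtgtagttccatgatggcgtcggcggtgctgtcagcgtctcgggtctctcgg
Ndufs4, chr13:114388045-114388344, minus strand: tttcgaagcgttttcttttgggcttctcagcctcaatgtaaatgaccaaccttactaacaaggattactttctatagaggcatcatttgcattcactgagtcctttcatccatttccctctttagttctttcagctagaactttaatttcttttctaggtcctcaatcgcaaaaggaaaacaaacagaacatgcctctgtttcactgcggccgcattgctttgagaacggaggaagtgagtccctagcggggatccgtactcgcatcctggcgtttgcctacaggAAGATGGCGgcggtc

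The motifs searched on both strands were the NRF1 core (GCGCA, any base, then GCGC), the ETS motif CCGGAAGT bound by GABPA, the YY1 motif AAGATGGCG, the ERRA motif AAGGTCA and the TATA box TATAAA. No match overlapped another in the promoters shown. RefSeq promoters were at hand for 66 of the 78 members, with 71 promoters in all. The NRF1 core stood in 22.5% of these 71 promoters, against 4.6% of all 32851 promoters and 9.19% of the 10226 promoters of detected genes. The YY1 motif stood in 9.86%, against 1.4% of all promoters and 2.78% of those of detected genes. The ERRA motif was held by 8.45% of the members' promoters and by 3.44% of those of detected genes. For the ETS motif the shares were 7.04% and 7.43%, and for the TATA box 8.45% and 8.04%. In the promoters shown, Ndufb4 carried NRF1 cores 191, 79 and 22 bases before its start and an ERRA motif 55 bases before it. Cox6a1 carried NRF1 cores 162 and 117 bases before the start, Uqcr11 an ETS motif 66 bases before it, and Ndufs4 a YY1 motif 35 bases after it. The promoter of Ndufv3 held no match to these letters. A match is a description of the letters and not a measured binding site.

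Facts of all arrays bear on what follows. Median intensity before normalization was 109.1 to 145, and 48.6% to 52.1% of the 25697 probes were detected on an array. IL6_KO replicate 2 stood apart, with a mean correlation to the other arrays of 0.944 (0.964 to 0.973 for the others) and a first principal component score of 62.6 (-27.3 to 23.7 for the others). The probe for Il6, the targeted gene, lay near background: it read 4.40 and 4.47 on the WT arrays and 5.17, 5.07 and 5.16 on the IL6_KO arrays, and was detected on 2 IL6_KO arrays only. That probe was not lower in the knock-out (log2 difference 0.69, adjusted p = 0.0922 by limma), and whether it lies within the deleted stretch is not given in the sources used here, so it does not check the labels. The tissue label was checked against adipocyte markers, with 14 of 16 tested and 12 of those detected on all 8. Of 15 macrophage markers 12 were tested. Of the brown and beige markers, Ucp1, Dio2, Elovl3, Prdm16 and Zic1 were not above background.

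The respiratory chain transcripts were bright and steady. Their probes had mean normalized log2 intensities from 5.25 to 13.68 with a median of 11.14, against a median of 7.54 over all detected genes, and 77 of 78 were detected on all 8 arrays. Probes differ in how well they bind, so these intensities do not rank the genes by transcript number. The median SD within a group was 0.169 for the members and 0.229 for all detected genes. The steadiest member was Ndufa13, an accessory subunit of complex I, with an SD of 0.0457, and the least steady was Atp5pb, the b subunit of the peripheral stalk of ATP synthase, with 0.417. The exception in detection was Cox6b2, the testis isoform of a complex IV subunit, which was detected on 2 of 2 WT, 2 of 3 IL6_KO and 1 of 3 sgp130Fc arrays. Atp5k, Cox4i2, Cox7b2, Cox8c, Ndufs1, Uqcrfs1 and Uqcrq were not detected on more than 1 array. No annotated probe was found for Sdha, nor for the subunits encoded in mitochondrial DNA under the symbols searched, so these were not analysed here.

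**Figure D1:**
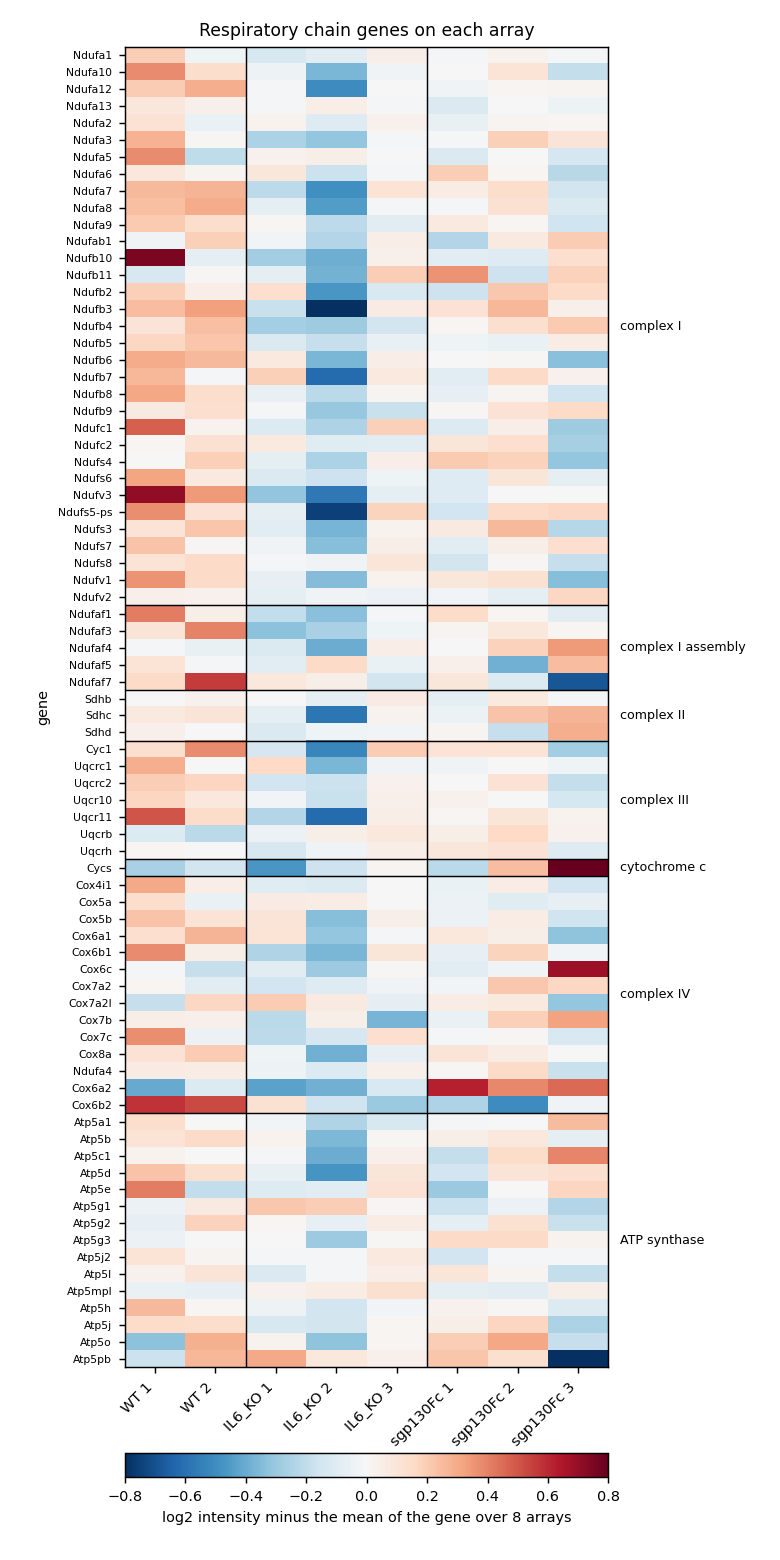
Normalized log2 intensity of the 78 members on the 8 arrays, each gene centred on its mean over the arrays and grouped by complex, with colours limited at 0.8 on either side. Blue is most widespread in the column of IL6_KO replicate 2, where 42 of the 78 genes had their lowest value, and red in WT replicate 1, where 32 had their highest.

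Centred on each gene's mean, the median member read 0.13 and 0.07 on the WT arrays, -0.06, -0.24 and 0.02 on the IL6_KO arrays and -0.01, 0.08 and -0.02 on the sgp130Fc arrays. Both WT arrays lay above all 3 IL6_KO arrays, while sgp130Fc replicate 2 lay above WT replicate 2. IL6_KO replicate 2 held the lowest value for 42 of the 78 members and the highest for 0, whereas over all detected genes it held the lowest value for 23.7% and the highest for 26.4%. In bulk tissue, fewer cells of a type and less RNA per cell cannot be told apart.

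In IL6_KO against WT fat, 0 of the 78 members passed the test at an adjusted p under 0.05 by limma, where 0.248% of all 14141 probes did. At an unadjusted p under 0.05 there were 8 members, all lower in IL6_KO, which is 10.3% of the members against 20.6% of all probes. The log2 difference was negative for 72 of the 78, with a median of -0.23, against -0.00255 over all detected genes. The IL6_KO arrays lay wholly below the WT arrays for 37 members (47.4%, against 20.2% of all probes) and wholly above for Uqcrb and Atp5mpl (2.56%, against 18.5%). Without IL6_KO replicate 2 the median was -0.12, 65 members were negative, 40 lay wholly below WT (51.3%, against 24.4% of all probes) and 2 wholly above (2.56%, against 20.9%). The 95% confidence interval of the difference lay within a 2-fold change either way for 72 members and within a 1.5-fold change for 31.

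In sgp130Fc against WT fat, 0 of the 78 passed by limma, where 0.0919% of all probes did. At an unadjusted p under 0.05 there were 4 (5.13%, against 8.23% of all probes): Cox6b2, Ndufaf7 and Ndufv3 lower and Cox6a2 higher. The median log2 difference was -0.12, and 62 of the 78 differences were negative. The groups did not overlap for 25 members lower in sgp130Fc (32.1%, against 15.1%) and for 4 higher (Atp5g3, Cox6a2, Ndufaf4 and Uqcrb, 5.13% against 13.1% of all probes). The interval lay within a 2-fold change for 73 members. This comparison and the one before share the same 2 WT arrays, and a high WT array enters both.

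In sgp130Fc against IL6_KO fat, which uses the same IL6_KO arrays as the first comparison, 0 of the 78 passed by limma, where 1.27% of all probes did, and 2 had an unadjusted p under 0.05 (Cox6a2 and Ndufb4, 2.56% against 17.8% of all probes). The median log2 difference was 0.08, and 62 of the 78 were positive. The groups did not overlap for 10 members higher in sgp130Fc (12.8%, against 13.1% of all probes) and 3 lower (Atp5g1, Cox5a and Ndufa5, 3.85% against 12.6%). Without IL6_KO replicate 2 the median was 0.019, against 0.012 over all detected genes, with 30 negative. The groups then did not overlap for 11 higher (14.1%, against 16.8% of all probes) and 5 lower (6.41%, against 15.4%). The interval lay within a 2-fold change for 76 members.

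**Figure D2:**
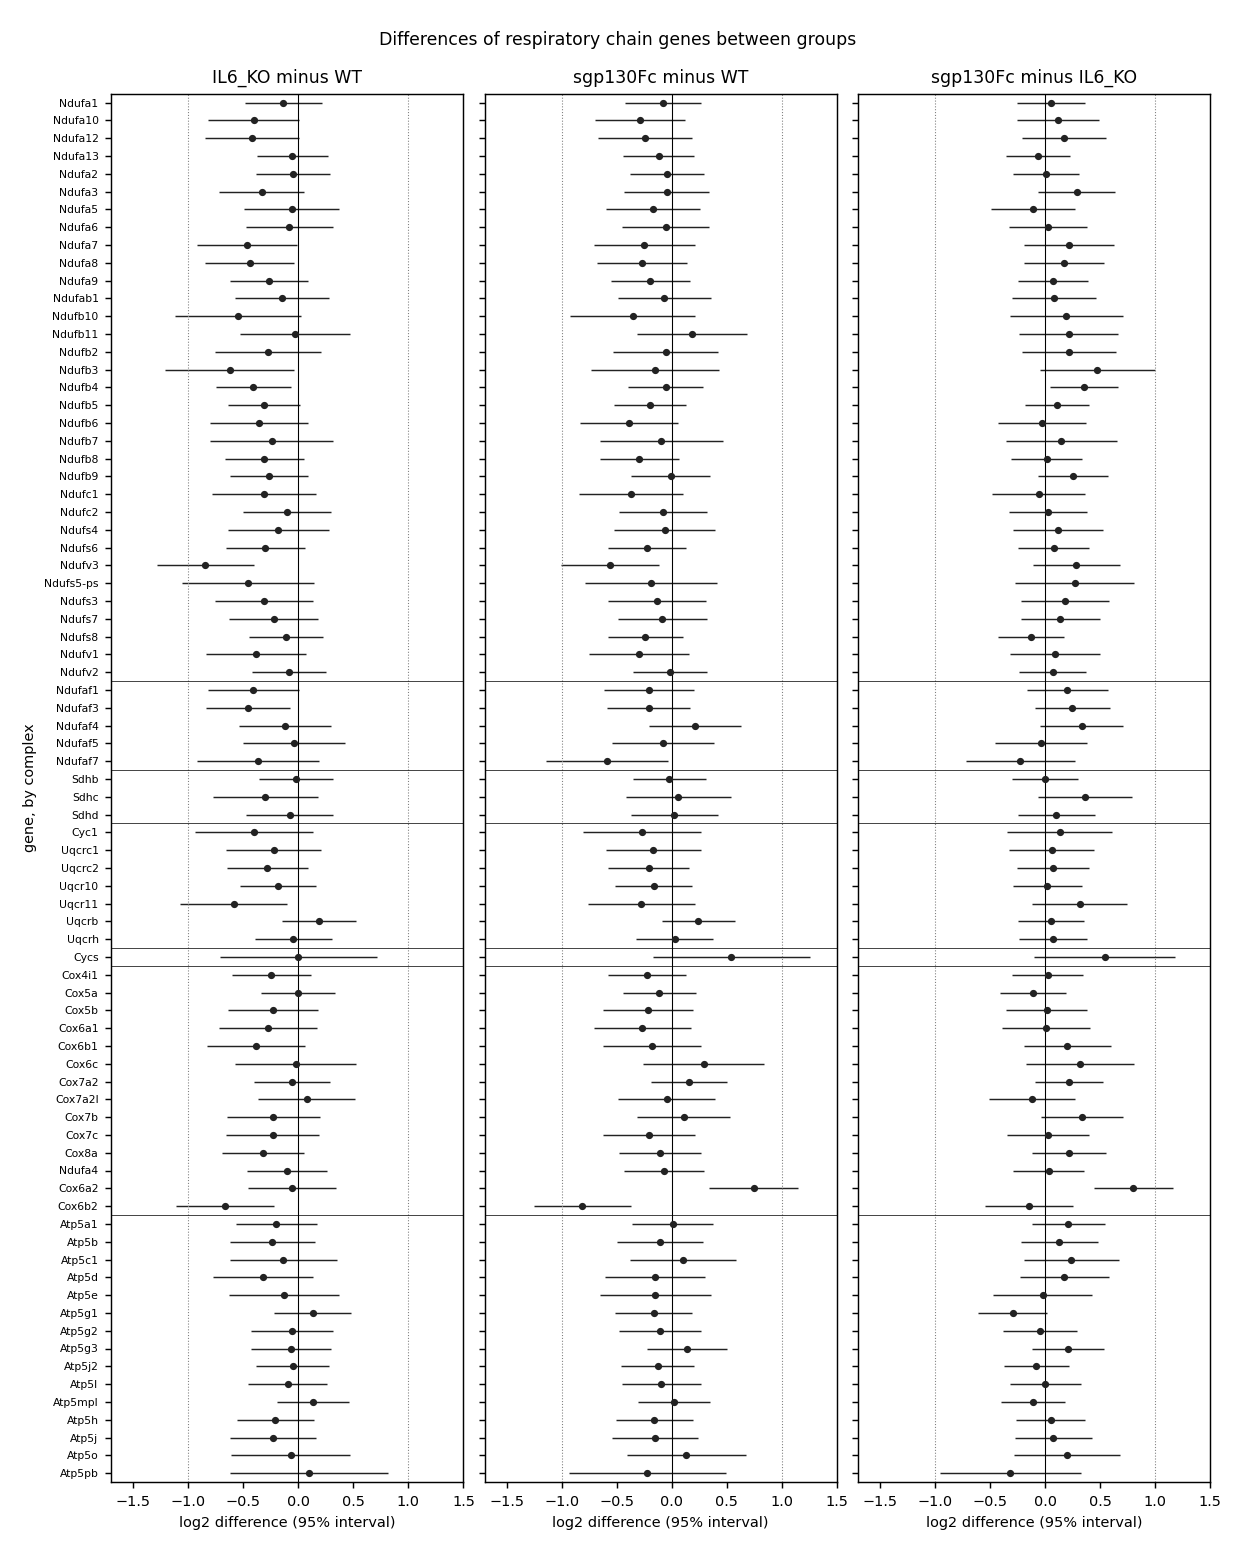
Log2 difference of each of the 78 members in the 3 comparisons, with the 95% confidence interval of the limma fit, a solid line at 0 and dotted lines at 1 on either side. In IL6_KO minus WT 72 points lie left of 0, but for 70 members the interval reaches 0, as it does for 74 in sgp130Fc minus WT and 76 in sgp130Fc minus IL6_KO.

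Complex I, the NADH dehydrogenase, had the lowest median difference of the complexes in IL6_KO minus WT, and the complexes were not tested against each other. All 33 of its detected genes had a negative difference (median -0.30), and 18 lay wholly below WT, where 20.2% of all probes did, but none passed. The median was -0.15 in sgp130Fc minus WT, with 32 of 33 negative, and 0.12 in sgp130Fc minus IL6_KO. The 5 detected core subunits, which carry the flavin and iron-sulphur clusters or the quinone site, had a median of -0.22 in IL6_KO minus WT, and the 27 accessory subunits a median of -0.30. On the arrays, the median complex I gene read 0.21 and 0.14 in WT, -0.07, -0.30 and 0.02 in IL6_KO and -0.02, 0.05 and -0.01 in sgp130Fc, so the 2 WT arrays were the highest of the 8.

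Ndufv3, an accessory subunit of the NADH-binding module, had the lowest difference of all members in IL6_KO minus WT. It read 12.23 and 11.86 in WT, 11.21, 10.95 and 11.45 in IL6_KO and 11.41, 11.52 and 11.52 in sgp130Fc. Both WT arrays were higher than all 6 others, and the IL6_KO and sgp130Fc arrays overlapped. It was 1.80-fold lower in IL6_KO than in WT (log2 difference -0.85, SE 0.20, 95% interval -1.29 to -0.40), which did not pass by limma (adjusted p = 0.0950). The difference was -0.56 in sgp130Fc minus WT (adjusted p = 0.494 by limma) and 0.28 in sgp130Fc minus IL6_KO. Its other probes gave -0.70 and -0.29 in IL6_KO minus WT, the last from a probe near background. Without IL6_KO replicate 3 the difference was -0.97 and passed (adjusted p = 0.0373 by limma).

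Ndufb3, an accessory subunit of the membrane arm, read 11.56 and 11.64 in WT, 11.13, 10.43 and 11.37 in IL6_KO and 11.42, 11.57 and 11.35 in sgp130Fc. All 3 IL6_KO arrays were below WT, with replicate 2 far lower than the other two, and sgp130Fc replicate 2 lay at the level of WT. Its difference was -0.62 in IL6_KO minus WT (SE 0.26, adjusted p = 0.218 by limma) and 0.47 in sgp130Fc minus IL6_KO (SE 0.23). Without IL6_KO replicate 2 these were -0.35 and 0.20. Ndufb4, another membrane-arm subunit and the one with 3 NRF1 cores in its promoter, read 8.06 and 8.19 in WT, 7.68, 7.66 and 7.80 in IL6_KO and 7.97, 8.08 and 8.16 in sgp130Fc. The IL6_KO arrays were the 3 lowest of the 8, and WT and sgp130Fc overlapped. The difference was -0.41 against WT (95% interval -0.75 to -0.07, adjusted p = 0.186 by limma) and that of sgp130Fc minus IL6_KO 0.35 (0.05 to 0.66, adjusted p = 0.224). Ndufa7 and Ndufa8, both accessory subunits, had differences of -0.46 and -0.44 in IL6_KO minus WT with intervals below 0, and did not pass. Ndufb6, a membrane-arm subunit, was 11.99 and 11.96 in WT and 11.70, 11.71 and 11.36 in sgp130Fc, a difference of -0.39 (SE 0.20). The dimmer Ndufb6 probe, also detected on all 8 arrays, gave -0.09 in the same comparison.

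The 5 detected core subunits had a smaller median difference in IL6_KO minus WT than the 27 accessory subunits (-0.22 and -0.30). The IL6_KO arrays lay wholly below WT for 4 of the 5 and 14 of the 27, where 20.2% of all probes did. Core and accessory subunits were not tested against each other. Ndufv1, which binds NADH and flavin, had a difference of -0.38 in IL6_KO minus WT (95% interval -0.84 to 0.07) and -0.30 in sgp130Fc minus WT. Ndufv2, its iron-sulphur partner, read 11.39 and 11.38 in WT, 11.27, 11.32 and 11.30 in IL6_KO and 11.32, 11.27 and 11.51 in sgp130Fc. Its IL6_KO values lay just under WT, and the interval of -0.42 to 0.25 leaves a change of either sign. Ndufa13, an accessory subunit also known as GRIM-19, stayed between 12.64 and 12.84 on all 8 arrays. Ndufab1, the mitochondrial acyl carrier protein, lay between 5.74 and 6.18. Ndufs4, a subunit needed for stable complex I in mice, had a difference of -0.18 (-0.64 to 0.28) in IL6_KO minus WT. Ndufs5-ps had -0.46, and its probe may also read the parent gene Ndufs5.

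Among the assembly factors taken in by symbol, Ndufaf3 read 6.78 and 7.07 in WT, 6.34, 6.41 and 6.64 in IL6_KO and 6.69, 6.76 and 6.69 in sgp130Fc. The 3 IL6_KO arrays were the lowest, and the difference against WT was -0.46 (SE 0.17, adjusted p = 0.181 by limma). Ndufaf7, known in human cells as a methyltransferase, read 7.18 and 7.59 in WT and 7.12, 6.92 and 6.34 in sgp130Fc. These groups did not overlap, and sgp130Fc replicate 3 was the lowest array. The difference was -0.59 in sgp130Fc minus WT (SE 0.25, adjusted p = 0.581 by limma). Ndufaf1 had a difference of -0.41 in IL6_KO minus WT, and Ndufaf4 and Ndufaf5 had -0.12 and -0.04.

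**Figure D3:**
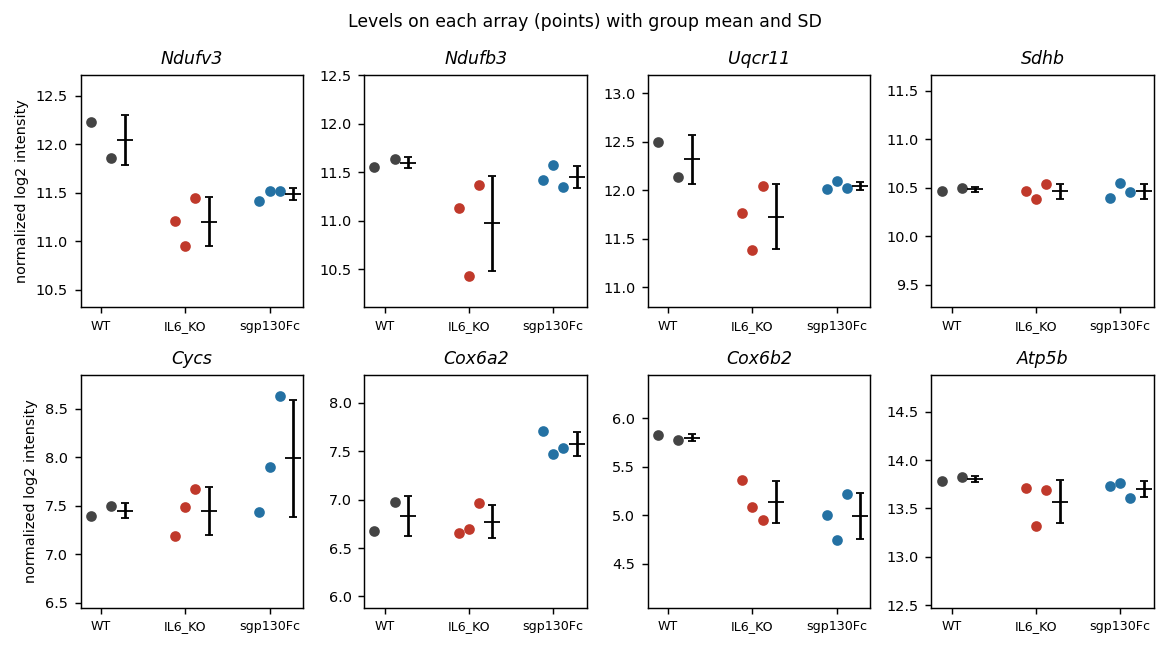
Normalized log2 intensity of 8 members, 1 point per array with the group mean and SD as bars, every panel spanning 2.4 log2 units. Ndufv3 and Uqcr11 are highest in WT, Cox6a2 is highest in sgp130Fc with all 3 arrays above the other 5, and Sdhb stays level.

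Complex II, succinate dehydrogenase, also works in the citric acid cycle. Sdhb, its iron-sulphur subunit, read 10.47 and 10.50 in WT, 10.46, 10.39 and 10.54 in IL6_KO and 10.39, 10.55 and 10.45 in sgp130Fc. The 3 groups overlapped, and the difference in IL6_KO minus WT was -0.02 with an interval of -0.35 to 0.31. Sdhc, a membrane anchor, read 10.62 and 10.64 in WT, 10.46, 9.96 and 10.57 in IL6_KO and 10.49, 10.76 and 10.81 in sgp130Fc. IL6_KO replicate 2 was its lowest array. Its difference was -0.30 in IL6_KO minus WT (SE 0.21) and 0.36 in sgp130Fc minus IL6_KO (SE 0.19), the latter 0.18 without that array. Sdhd, the other anchor, had differences of -0.08 and 0.02 against WT.

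In complex III, which hands electrons from coenzyme Q to cytochrome c, 6 of 7 detected genes had a negative difference in IL6_KO minus WT (median -0.23). Uqcr11, a small supernumerary subunit, read 12.49 and 12.14 in WT, 11.76, 11.38 and 12.04 in IL6_KO and 12.01, 12.09 and 12.02 in sgp130Fc. Both WT arrays were above all 6 others. The difference was -0.59 in IL6_KO minus WT (SE 0.21, 95% interval -1.07 to -0.10, adjusted p = 0.180 by limma) and -0.28 in sgp130Fc minus WT. Cyc1, the cytochrome c1 subunit, read 10.39 and 10.64 in WT, 10.12, 9.74 and 10.46 in IL6_KO and 10.37, 10.37 and 9.98 in sgp130Fc. WT and IL6_KO overlapped, since IL6_KO replicate 3 lay above WT replicate 1. Its difference was -0.41 (-0.94 to 0.13). Uqcrb, a ubiquinone-site subunit, went the other way, with 11.33 and 11.23 in WT, 11.39, 11.49 and 11.53 in IL6_KO and 11.49, 11.60 and 11.48 in sgp130Fc. Both WT arrays were the lowest of the 8, with differences of 0.19 and 0.24 that did not pass. Uqcr10 had -0.18 and -0.16 against WT, and the core proteins Uqcrc1 and Uqcrc2 had -0.23 and -0.28 in IL6_KO minus WT.

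Cycs encodes cytochrome c, the carrier between complexes III and IV that also triggers apoptosis when released. It read 7.39 and 7.50 in WT, 7.18, 7.48 and 7.67 in IL6_KO and 7.43, 7.89 and 8.63 in sgp130Fc. The sgp130Fc group overlapped both others, and replicate 3 alone was far above the rest. The difference was 0.54 against both WT and IL6_KO (SE 0.31 and 0.28), and neither passed. The dimmer Cycs probe gave -0.08 and 0.10 in the same comparisons. Cycs has processed pseudogenes, whose transcripts a probe may also read.

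Complex IV, cytochrome c oxidase, had 13 of 14 detected genes negative in IL6_KO minus WT (median -0.23) and medians of -0.11 and 0.03 in the other comparisons. It has pairs of subunit isoforms used in different tissues. Cox6a2, the heart and skeletal muscle isoform of subunit 6a, read 6.68 and 6.97 in WT, 6.65, 6.70 and 6.96 in IL6_KO and 7.71, 7.47 and 7.54 in sgp130Fc. All 3 sgp130Fc arrays were above all 5 others. It was 1.74-fold higher in sgp130Fc than in IL6_KO (log2 difference 0.80, SE 0.16, 95% interval 0.44 to 1.16), just outside the threshold by limma (adjusted p = 0.0524), and it passed under 6 of 19 alternative settings. Against WT the difference was 0.74 (SE 0.18, adjusted p = 0.315 by limma).

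Cox6a2 is itself on the list of skeletal muscle markers. Only 4 of the 11 markers on that list were tested, and Ckm, Myh1, Myh4, Atp2a1, Tnnt3 and Mylpf were not detected. Acta1, skeletal muscle actin, read 9.21 and 8.82 in WT, 8.88, 6.43 and 7.87 in IL6_KO and 9.06, 9.77 and 9.52 in sgp130Fc. The summed intensity of the 4 markers was 672 to 805 in WT, 297 to 656 in IL6_KO and 829 to 1127 in sgp130Fc. That sum includes Cox6a2. The other 3 markers summed to 546 to 703 in WT, 193 to 555 in IL6_KO and 620 to 950 in sgp130Fc, so that sgp130Fc lay above IL6_KO and overlapped WT. Acta1 made up most of this sum on the WT and sgp130Fc arrays, so the sum mainly follows that gene. The part of muscle RNA in the result was not tested. Mb, the oxygen store of muscle, was detected on 2 arrays and had a difference of 0.32 in sgp130Fc minus IL6_KO, and Tnni2, a fast-muscle troponin, had -0.33.

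The ubiquitous partner Cox6a1 read 12.54 and 12.68 in WT, 12.52, 12.10 and 12.39 in IL6_KO and 12.50, 12.45 and 12.08 in sgp130Fc. Both WT arrays were the highest, and the difference against WT was -0.27 in each comparison. Cox6b2 read 5.83 and 5.77 in WT, 5.37, 5.09 and 4.95 in IL6_KO and 5.00, 4.75 and 5.22 in sgp130Fc. The WT arrays were above all 6 others, close to background, with differences of -0.66 (adjusted p = 0.134 by limma) and -0.81 (adjusted p = 0.316). Its ubiquitous partner Cox6b1 had -0.38 and -0.18. Cox4i1, a regulatory subunit, had -0.25 and -0.22, with 13.38 and 13.13 in WT and 12.97 to 13.08 in IL6_KO. Cox6c, a small subunit, had 0.29 in sgp130Fc minus WT, and its replicate 3 alone, at 12.42, was above the 11.44 to 11.74 of the other 7 arrays. Cox7a2 and Cox7a2l had -0.06 and 0.08 in IL6_KO minus WT, and Ndufa4, now placed in complex IV, had -0.10.

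ATP synthase had a median of -0.09 in IL6_KO minus WT, with 12 of 15 detected genes negative, and of -0.11 in sgp130Fc minus WT. The 5 genes of the catalytic F1 head were all negative in IL6_KO minus WT (median -0.20). Atp5b, the catalytic beta subunit, read 13.78 and 13.83 in WT, 13.71, 13.32 and 13.69 in IL6_KO and 13.73, 13.76 and 13.61 in sgp130Fc. Both WT arrays were the highest by a small margin, and the difference of -0.24 had an interval of -0.62 to 0.15. Atp5pb had 0.10 in IL6_KO minus WT and -0.32 in sgp130Fc minus IL6_KO, with 95% intervals of -0.62 to 0.81 and -0.96 to 0.32, and sgp130Fc replicate 3 at 9.20 was its lowest array. Without WT replicate 1 the first was -0.12, and without sgp130Fc replicate 3 the second was 0.032. Atp5mpl, a small membrane subunit, was 12.21 and 12.20 in WT and 12.29, 12.32 and 12.39 in IL6_KO, a difference of 0.13 (-0.20 to 0.46). Atp5o, a stalk subunit, had -0.07.

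The c ring, which turns as protons pass, is encoded by 3 genes whose mature protein is the same. Atp5g1 read 10.84 and 10.96 in WT, 11.11, 11.09 and 10.90 in IL6_KO and 10.71, 10.84 and 10.66 in sgp130Fc. The sgp130Fc arrays lay below all IL6_KO arrays, with a difference of -0.29 (SE 0.14, adjusted p = 0.309 by limma). Atp5g3 read 13.46 and 13.50 in WT, 13.50, 13.21 and 13.52 in IL6_KO and 13.66, 13.66 and 13.54 in sgp130Fc. Here the sgp130Fc arrays were the 3 highest, with a difference of 0.21 (SE 0.14) against IL6_KO. Atp5g2 had -0.05 in the same comparison.

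**Figure D4:**
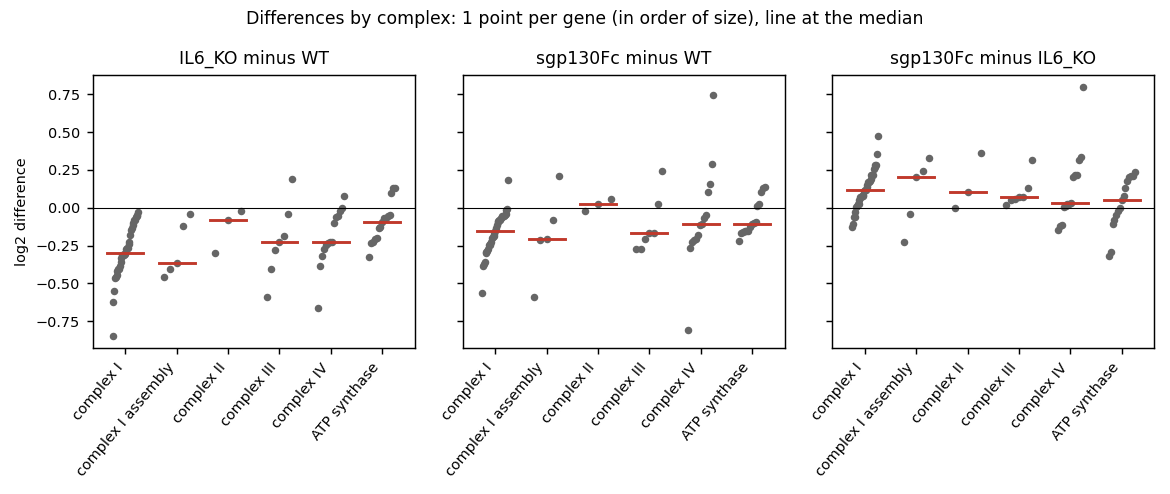
Log2 difference of each member by complex in the 3 comparisons, 1 point per gene in order of size with a line at the median. In IL6_KO minus WT the complex I median lies at -0.30 and that of ATP synthase at -0.09, and in sgp130Fc minus IL6_KO the point at 0.80 is Cox6a2.

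Other mitochondrial lists were read the same way. Of 31 detected assembly factors outside the symbol rule, Timmdc1 alone passed. Timmdc1 anchors the membrane arm during complex I assembly and was measured by 1 probe. It read 8.77 and 9.14 in WT, 6.64, 6.88 and 7.06 in IL6_KO and 6.93, 7.31 and 7.29 in sgp130Fc. It fell by 2.10 in IL6_KO and by 1.78 in sgp130Fc against WT on the log2 scale (adjusted p = 0.00897 and 0.0214 by limma), and the IL6_KO and sgp130Fc arrays overlapped. The second call was lost in 5 of 19 alternative settings and the first in 2. Atpaf2, which assembles the F1 head, had -0.83 in IL6_KO minus WT (adjusted p = 0.176 by limma), and Lrpprc, which stabilises mitochondrial messenger RNAs, had 0.40 in sgp130Fc minus WT. In sgp130Fc minus IL6_KO, Tmem186 had 0.41 and Coa4, a complex IV assembly factor, -0.50, and neither passed. The list as a whole had medians of -0.13 and -0.05 against WT.

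The 16 detected citric acid cycle genes were all negative in IL6_KO minus WT (median -0.34), and 0 passed by limma, with 5 at an unadjusted p under 0.05, where 20.6% of all probes were. Cs, citrate synthase, had -0.50 (adjusted p = 0.182 by limma) and Dlst, a subunit of oxoglutarate dehydrogenase, -0.48. Their median was -0.09 in sgp130Fc minus WT and 0.33 in sgp130Fc minus IL6_KO. Dlat and Dld, subunits of pyruvate dehydrogenase, had 0.44 and 0.39 in sgp130Fc minus WT, and Dlat and the fumarase gene Fh1 had 0.75 and 0.46 in sgp130Fc minus IL6_KO, none of them passing. Of 70 mitochondrial ribosomal genes, 62 were negative in IL6_KO minus WT (median -0.21) and 57 in sgp130Fc minus WT (median -0.14). In these, 0 passed by limma, with 5 and 2 of the 70 at an unadjusted p under 0.05, where 20.6% and 8.23% of all probes were. Mrps6 had the lowest value, -0.84, with Mrps18b at -0.56, both in IL6_KO minus WT. Mrpl55 and Mrpl58 had -0.52 and -0.40 in sgp130Fc minus WT, and Mrpl39 and Mrps35 had 0.38 and 0.37 in sgp130Fc minus IL6_KO. The 25 import genes had medians of -0.16 and -0.03 against WT, with Pam16 and Grpel1, parts of the import motor, at -0.76 and -0.39 in IL6_KO minus WT. Tomm40, the outer membrane pore for proteins, and the chaperonin Hspe1 had -0.64 and 0.27 in sgp130Fc minus WT, and Timm17a and Pam16 had 0.30 and 0.51 in sgp130Fc minus IL6_KO. The 17 regulators of mitochondrial gene expression had medians of 0.01 and -0.05, and Tfam, which packages and transcribes mitochondrial DNA, had 0.40 in IL6_KO minus WT (adjusted p = 0.228 by limma). Tfb1m, a methyltransferase of mitochondrial ribosomal RNA, had -0.36 and -0.39 against WT, and Ssbp1, which binds single-stranded mitochondrial DNA, had 0.30 in sgp130Fc minus WT. Gabpa and Nrf1, which encode factors whose motifs were searched, had -0.27 and -0.14 in sgp130Fc minus IL6_KO and did not pass.

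The list of carriers and channels, which also holds Atpif1, had a positive median of 0.23 in IL6_KO minus WT. Of its 8 genes 2 were negative, with Slc25a25 lowest at -0.63. By array the groups overlapped, since the list median was 0.059 on WT replicate 2 and 0.015 on IL6_KO replicate 3. Atpif1, the inhibitor that stops ATP synthase from running backwards, read 11.60 and 11.56 in WT, 12.22, 12.85 and 12.05 in IL6_KO and 11.71, 11.76 and 11.75 in sgp130Fc. All 3 IL6_KO arrays were above the other 5, and replicate 2 was the highest. The difference was 0.79 against WT (SE 0.23) and did not pass (adjusted p = 0.127 by limma). Vdac2, a pore of the outer membrane, had 0.50. In sgp130Fc minus IL6_KO the same genes had -0.64 and -0.49. In sgp130Fc minus WT, Slc25a25, an ATP and phosphate carrier, had -0.68 and Vdac1 -0.21, neither passing.

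**Figure D5:**
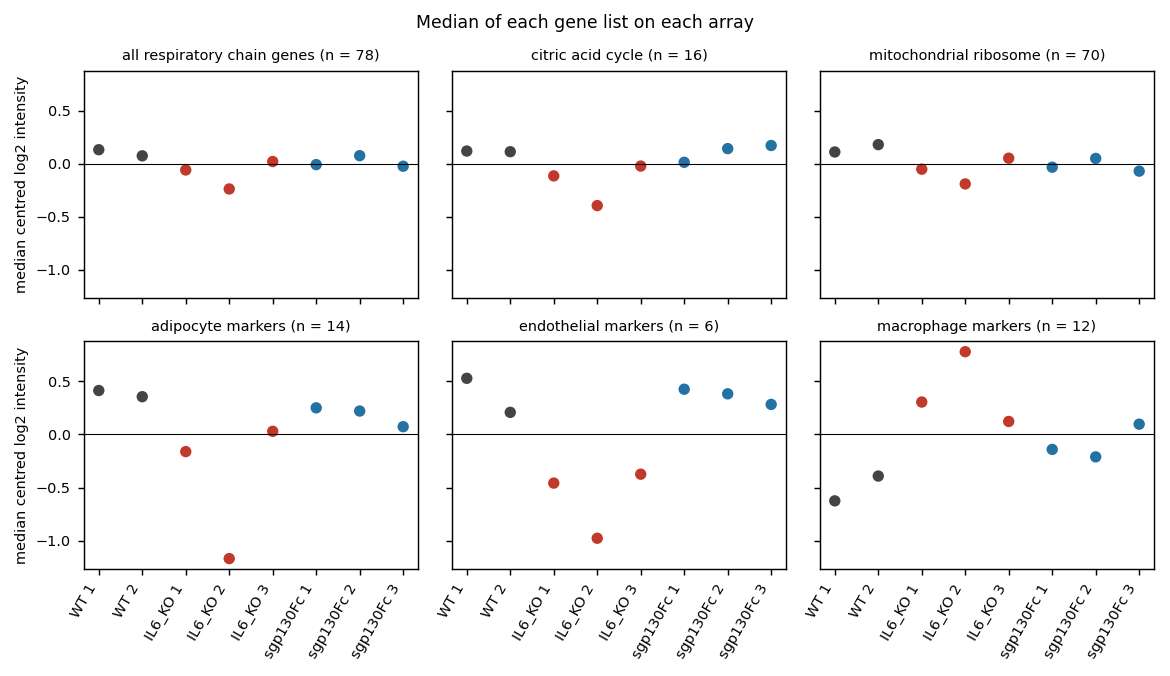
Median of a gene list on each array, with each gene centred on its mean over the 8 arrays, for 6 lists. On IL6_KO replicate 2 the respiratory chain (-0.24) and the adipocyte markers (-1.17) are at their lowest and the macrophage markers (0.78) at their highest. WT replicate 1 is highest for both the chain (0.13) and the adipocyte markers (0.41). In both, IL6_KO replicate 1 comes next above IL6_KO replicate 2 (-0.06 and -0.16). Among the remaining arrays the order differs in part: sgp130Fc replicate 1 reads -0.01 and 0.25, and IL6_KO replicate 3 reads 0.02 and 0.03.

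Lists of cell type markers also differed between the groups, and not all in the way the respiratory chain did. The adipocyte markers had a median of 0.41 and 0.36 on the WT arrays, -0.16, -1.17 and 0.03 on the IL6_KO arrays and 0.25, 0.22 and 0.07 on the sgp130Fc arrays. The macrophage markers had -0.63 and -0.39 in WT, 0.30, 0.78 and 0.12 in IL6_KO and -0.14, -0.21 and 0.10 in sgp130Fc. WT was highest for the first list and lowest for the second, and IL6_KO replicate 2 was the reverse extreme in both. Of the adipocyte markers 13 of 14 were negative in IL6_KO minus WT, where Retn passed (-1.94, adjusted p = 0.0467 by limma), and of the macrophage markers 1 of 12 was negative. The endothelial markers had -0.46, -0.98 and -0.37 on the IL6_KO arrays and 0.21 or more on the other 5, with 6 of 6 negative in IL6_KO minus WT. Their median in sgp130Fc minus WT was 0.04, with 3 of 6 negative, against -0.12 for the respiratory chain. In sgp130Fc minus IL6_KO, 2 of the 6 passed by limma, Gpihbp1 (1.46, adjusted p = 0.0404) and Emcn (0.83, adjusted p = 0.0259). The summed intensity of the adipocyte markers was 106191 to 114123 in WT, 49518 to 99296 in IL6_KO and 91307 to 104832 in sgp130Fc. That of the macrophage markers was 48395 to 48469, 62687 to 80939 and 52463 to 64464 in the same order. Erythroid markers, read as a sign of blood in the sample, summed to 24016 to 25275 in WT, 5737 to 13800 in IL6_KO and 22328 to 24843 in sgp130Fc. Of 4 tested, Alas2 and Hbb-bt passed by limma, lower in IL6_KO than in WT (-3.95 and -2.52, adjusted p = 0.0406 and 0.0250) and higher in sgp130Fc than in IL6_KO (2.75 and 2.26, adjusted p = 0.0370 and 0.0103). The Hbb-bt probe may also read other beta globins. The part of the cell mixture in the differences of the respiratory chain was not tested.

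The oxidative muscle and brown fat isoforms left out by the rule, Cox8b and Cox7a1, had larger differences than any member in IL6_KO minus WT. Cox8b read 9.84 and 9.26 in WT, 8.42, 7.97 and 8.72 in IL6_KO and 9.38, 9.59 and 9.43 in sgp130Fc. The IL6_KO arrays were the 3 lowest, and the difference of -1.17 did not pass (adjusted p = 0.0859 by limma). Cox7a1 had -1.27 (adjusted p = 0.148). Of 5 brown and beige markers tested, a list that includes Cox8b and Cox7a1 themselves, 5 were negative in that comparison. They ranged from -1.27 for Cox7a1 to -0.17 for Ppargc1a.

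Probes and copies set a limit. For 14 members more than 1 probe was tested, and all probes of a gene had the same sign for 11 in IL6_KO minus WT, 8 in sgp130Fc minus WT and 9 in sgp130Fc minus IL6_KO. Several of these genes have processed pseudogenes, so a probe may also read a copy.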

How the data were processed

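Adipose RNA of 8 mouse samples was hybridised to Illumina bead arrays. Per the file headers, the authors deposited a linear probe intensity and a detection p-value per array, neither background-subtracted nor normalized, and a table of normalized log2 values. GenomeStudio and limma are named, without versions, per the submitters' processing notes. The intensities were renormalized with neqc of limma 3.58.1 (R 4.3.3, offset 16), which came within 0.0548 of the deposited log2 values. Background correction can compress or stretch dim probes such as Cox6b2.

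Using lmFit and eBayes, 1 linear model with a term per group covered the 8 arrays and the 14141 probes detected at p under 0.05 on at least 2 arrays. P-values are two-sided and Benjamini-Hochberg adjusted over these probes, separately for each comparison, with a threshold of 0.05. Precision is limited by how few arrays there are: a member's difference had a median standard error of 0.18 against WT and 0.16 otherwise. Fits were tested on simulated data.

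The members, the gene lists and the tests were chosen with earlier results of these data known. Named were members that passed, the 4 lowest and 4 highest in each comparison, Cycs and Cyc1, the succinate dehydrogenase genes, the brightest and dimmest member of each complex, complex IV isoform pairs and the c ring genes, and from other lists those passing and, in the mitochondrial lists, the 2 of smallest p in each comparison. Other genes named were chosen after their values were seen. Over all tested probes, arrays of equal replicate number did not deviate together from their group means (correlations -0.353 to 0.180), so the numbers were not taken as pairs. The deviations of the 2 WT arrays mirror each other, so their correlations come in pairs of opposite sign. Alternatives were another normalization, offset, filter, variance model, array weights, sample set, replicate block, probe averaging and leaving out each array.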

Additional observations from a re-analysis of the deposited data

How the results depend on the processing

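The median log2 difference of the respiratory chain genes kept its sign under all 19 alternatives, from -0.26 to -0.12 in IL6_KO minus WT, -0.16 to -0.10 in sgp130Fc minus WT and 0.02 to 0.14 in sgp130Fc minus IL6_KO, and these ranges were also those of leaving out 1 array. The values nearest 0 in the first and the last, -0.12 and 0.02, were those without IL6_KO replicate 2. Without that array the median over all detected genes was -0.016 and 0.012, so in the last comparison the members lay close to all genes. The count of members passing in sgp130Fc minus IL6_KO, 0 as reported, was 1 (Cox6a2) with quantile normalization without background correction, an offset of 50, detection on all 8 arrays, array weights and averaging a gene's probes. Leaving out 1 array gave 0 to 1 in IL6_KO minus WT and in sgp130Fc minus IL6_KO, the 1 being Ndufv3 and Cox6a2 without IL6_KO replicate 3, and 0 in sgp130Fc minus WT. The cause was not tested. Atp5pb changed sign without WT replicate 1 in IL6_KO minus WT (-0.12, where leaving out 1 array gave -0.12 to 0.31) and without sgp130Fc replicate 3 in sgp130Fc minus IL6_KO (0.032, in a range of -0.51 to 0.032). With the replicate block the medians were -0.23, -0.13 and 0.08 and 0 members passed in each comparison, so the block changed no call of a member. Without 1 WT array, the lone WT array is assumed to vary like the other groups. Of 510 values of named genes under the alternatives, 494 kept their direction and their side of the threshold, 7 lost a call, 7 gained one and 2 changed sign. The median of all genes lay furthest from 0, at 0.0315, with scaling to the 75th percentile in sgp130Fc minus IL6_KO. Cox6b2 lay near background, where the array resolves little.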
